A study of Homo sapiens with 8 samples.

Results

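The 9 genes described here encode transcription factors that pattern the developing forebrain: NR2F1, NR2F2, EMX1, EMX2, PAX6, SP8, LHX2, OTX1 and OTX2. They were taken by symbol from a table of 17504 genes, all 9 had a row, and all 9 passed the filter on low counts that left 13468 genes for testing. They were chosen by their role in patterning and on their knockdown against control counts in these same libraries, which were already known, so those values are given as a description, with no test. RNA was measured in bulk libraries made at day 30 from brain organoids, whose source was IMR90-4, an established human induced pluripotent stem cell line. There were 3 libraries of control organoids, labelled FCT with a WT genotype, and 3 of FABP7 knockdown organoids, labelled FKD. Per the labels' protocol 1 derivative of IMR90-4 gave rise to each group, so other differences between the lines and the loss of FABP7 cannot be told apart. The sources used here do not give the knockdown method, and no label states whether replicates were grown separately, so p-values cover spread among these libraries alone, and that spread may be technical. The series' design text speaks of adipogenic differentiation at this day, whereas every sample label gives brain organoid.

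The early telencephalon is divided along its axes by factors expressed in opposing gradients. In the mouse cortical primordium Pax6 and Sp8 are highest at the rostral end, near the source of fibroblast growth factor (FGF) signals, while Emx2 and Nr2f1 are highest caudally. Dorsal territory is marked by Emx1, Emx2, Pax6 and Lhx2, ventral territory by homeobox genes such as the Dlx family, and Otx1 and Otx2 define the forebrain and midbrain against the hindbrain. NR2F1 and NR2F2 encode the orphan nuclear receptors COUP-TFI and COUP-TFII, and NR2F2 is also known from the caudal ganglionic eminence and its interneurons.

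The targeted gene was low in the libraries labelled knockdown, with 14, 15 and 16 counts of FABP7 against 3123, 2650 and 2850 in control. Estimated counts summed to between 13424959 and 15675888 per library. Levels are given as CPM scaled with TMM, which sets counts against library totals corrected for composition, and as the authors' TPM values, which divide by transcript length and so allow levels of different genes to be compared. Markers of the labelled tissue were present, with STMN2 of young neurons at 1624 TPM (control) and 1105 TPM (knockdown). Over all tested genes 51.7% were called (edgeR adjusted p under 0.05), 26.4% higher and 25.3% lower, which is the background for each marker list. Of 9 neural markers, all tested, SOX2 and HES5 were called higher and 5 lower. The 9 summed to 3971 to 4052 TPM in control and 3051 to 3060 TPM in knockdown libraries. Cajal-Retzius markers, 7 in all, summed to 12 to 12.2 and 6.18 to 6.94 TPM, with CALB2 the most abundant at 2.82 and 2.3 TPM. Of the 6 tested, RELN, LHX1, LHX5 and EBF3 were called lower. Most markers of cell types outside the neural lineage were near 0, with AIF1 the main exception in TPM. In CPM AIF1 stood at 2.93 in control and 10.5 in knockdown. That was under DPPA4 (16.7 and 17.1 CPM) and PDGFRB (10 and 16 CPM). The 8 choroid plexus markers summed to 2.08 to 2.95 TPM in control and 1.21 to 2.17 TPM in knockdown libraries, with AQP1 highest, HTR2C called lower and FOLR1 at 0 counts in control. The 7 markers of endothelium and pericytes summed to 3.54 to 5.02 and 5.17 to 5.73 TPM, with PDGFRB and RGS5 called higher and PECAM1 and CDH5 at 0 counts in knockdown. Those of mesenchyme and neural crest summed to 2.34 to 2.7 and 5.05 to 5.24 TPM, with LUM called higher, SOX10 lower and DCN at 0 counts in control. Pigmented epithelium markers, 9 in number, summed to 9.75 to 12.2 TPM in control and 25.4 to 26.8 TPM in knockdown, with PMEL, MITF and SERPINF1 called higher, DCT called lower and TYR, TYRP1 and MLANA too low to test. Of 4 microglial markers AIF1 was called higher at 19.8 and 64.6 TPM (log2 fold change 1.83, edgeR adjusted p = 5.83e-11) while CX3CR1, P2RY12 and CSF1R were too low to test. Of 5 markers of pluripotent cells 3 were tested and none was called by edgeR or had an unadjusted p under 0.05, and the 5 summed to 13.6 to 14.5 TPM in control and 11.5 to 13.7 TPM in knockdown, with DPPA4 highest. The part of these neural, Cajal-Retzius, pigment and other markers in the results below was not tested.

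NR2F1 and NR2F2, the factors of caudal and ventral identity, were the members furthest above control. NR2F1 (NCBI Gene 7025, chromosome 5, 93583222 to 93594611 on GRCh38.p14, plus strand) had 124, 119 and 137 counts in control (replicates 1, 2 and 3 in that order, as throughout) and 734, 747 and 768 in knockdown. Its mean level was 8.55 ± 0.735 CPM against 50.5 ± 0.512 CPM in knockdown (SD, n = 3 per group), log2 fold change 2.57 (standard error 0.08), or 5.92-fold. NR2F2 (chromosome 15, 96326046 to 96340263, plus strand) had 90, 64 and 72 counts in control and 443, 410 and 467 in knockdown. Its mean was 5.05 ± 0.532 CPM and 29.7 ± 1.75 CPM, log2 fold change 2.55 (standard error 0.10), or 5.84-fold. For both genes every knockdown library lay far above every control library, and the spread within a group was small beside the gap. In bulk libraries more cells of a type and more RNA per cell cannot be told apart. By size of change NR2F1 was at place 50 and NR2F2 at place 52 among the 13468 tested genes. The ratio of NR2F1 to NR2F2 in TPM was 2.63, 3.56 and 4.46 over control replicates and 3.71, 3.61 and 3.33 over knockdown replicates, so that the means, 3.55 ± 0.915 and 3.55 ± 0.196, were alike while both genes differed between the groups.

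**Figure D1:**
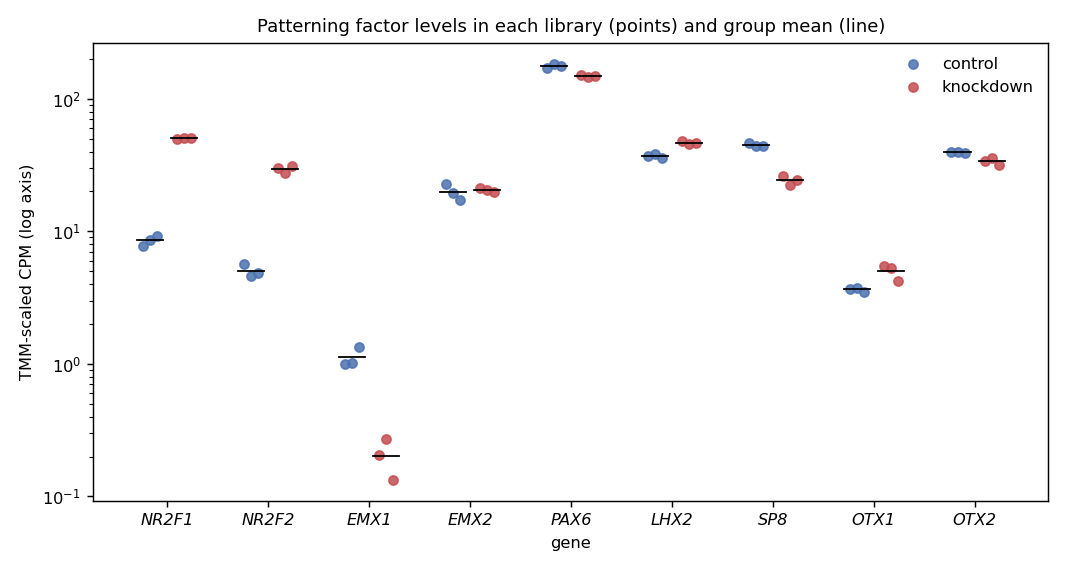
TMM-scaled CPM of the 9 factors on a log axis, with a point for each of the 3 control (blue) and 3 knockdown (red) libraries and a black line at each group mean. NR2F1 and NR2F2 have control means of 8.55 and 5.05 CPM and knockdown means of 50.5 and 29.7 CPM, while the groups overlap only for EMX2.

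The EMX factors, which mark the dorsal telencephalon, differed from each other in their pattern. EMX1 (chromosome 2, 72916189 to 72934891, plus strand), a factor of the cortical primordium, had 16, 14 and 20 counts in control and 3, 4 and 2 in knockdown. Every knockdown library lay below every control library, but all were low, with means of 1.12 ± 0.197 and 0.203 ± 0.0686 CPM, and 3 counts in a library stand for 0.188 to 0.217 CPM. Summed over libraries, 50 counts stood against 9, and EMX1 passed the low-count filter through its control libraries alone. EMX2 (chromosome 10, 117542746 to 117549546, plus strand), which sets caudal and dorsal identity in the mouse, had 363, 271 and 255 counts in control and 311, 304 and 298 in knockdown. Control replicate 1 was the highest and control replicate 3 the lowest of all 6 libraries in CPM, and the knockdown libraries lay between them. The EMX2 means were 19.9 ± 2.79 and 20.5 ± 0.696 CPM, log2 fold change 0.04 (standard error 0.09), whose sign turned under other scalings (-0.03 with library totals alone, -0.12 on log2(TPM + 1)) and was -0.05 without control replicate 3. In TPM EMX2 stood at 14.7 ± 4.03 times EMX1 in control and at 86.5 ± 27.2 times EMX1 in knockdown.

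PAX6 and LHX2, factors of cortical progenitors, showed small differences of opposite sign. PAX6 (chromosome 11, 31789026 to 31817961, minus strand), the paired-box factor of dorsal radial glia with a rostral high point, had 2717, 2552 and 2622 counts in control and 2212, 2180 and 2229 in knockdown. Its mean was 177 ± 7.18 CPM against 149 ± 1.85 CPM, log2 fold change -0.25 (standard error 0.04). LHX2 (chromosome 9, 124011768 to 124033301, plus strand), a LIM-homeodomain factor that holds cortical against hem identity in the mouse, had 590, 529 and 533 counts in control and 700, 679 and 700 in knockdown. Its mean was 37.1 ± 1.17 and 46.7 ± 0.945 CPM, log2 fold change 0.33 (standard error 0.06). Neither gene's groups overlapped, PAX6 being lower and LHX2 higher in each knockdown library, although on log2(TPM + 1), where the median of all genes lay at -0.16, the LHX2 value was 0.15 and that of PAX6 -0.40.

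SP8, the rostral member, was lower in knockdown. This zinc finger gene (chromosome 7, 20782279 to 20786886, minus strand) acts with FGF8 at the rostral patterning centre of the mouse and also marks interneurons of the ganglionic eminences. It had 738, 604 and 656 counts in control and 381, 329 and 368 in knockdown. Each knockdown library lay well below each control, with means of 44.8 ± 1.36 and 24.2 ± 1.89 CPM, 54.1% of the control level. The log2 fold change was -0.89 (standard error 0.07), and 5.41% of the tested genes had a larger change.

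The OTX genes lay on opposite sides of control by small amounts. OTX1 (chromosome 2, 63049735 to 63057831, plus strand), a homeodomain factor of the forebrain and of deep-layer cortical neurons, had 59, 52 and 52 counts in control and 81, 78 and 64 in knockdown. Its mean was 3.66 ± 0.134 and 5.02 ± 0.671 CPM (log2 fold change 0.45, standard error 0.15), with knockdown replicate 3 nearest to the controls. OTX2 (chromosome 14, 56799905 to 56810479, minus strand), required for the anterior neural plate and later used in the choroid plexus and pigmented epithelium, had 638, 548 and 582 counts in control and 496, 529 and 473 in knockdown. Its mean was 39.7 ± 0.378 and 33.7 ± 2.15 CPM (log2 fold change -0.24, standard error 0.06). In TPM OTX2 was 10.3 ± 0.424 times OTX1 in control and 6.39 ± 0.627 times OTX1 in knockdown, with every knockdown ratio below every control ratio.

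**Figure D2:**
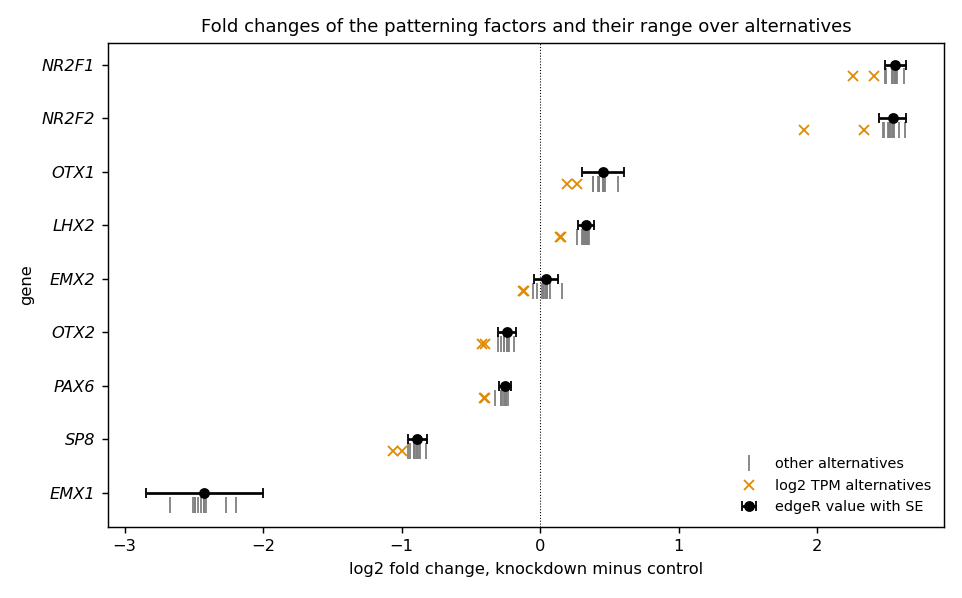
Log2 fold change of each factor, knockdown minus control, with black points and bars for the edgeR value and its standard error, grey ticks for alternative counting, scaling or library choices and orange crosses for log2 TPM. EMX2 alone has ticks on both sides of 0, and the TPM crosses, which EMX1 lacks, lie to the left of the count values, as did the median of all genes.

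Across the 9 factors 5 log2 fold changes were above 0 and 4 below, and for 8 the libraries of the groups did not overlap in CPM, 4 on the high and 4 on the low side. Among all tested genes 57.3% had groups that did not overlap in CPM. In TPM OTX1 overlapped as well as EMX2, with 2.15, 2.25 and 2.06 TPM in control and 2.88, 2.75 and 2.23 TPM in knockdown. NR2F1, NR2F2 and EMX1 were past 2-fold, as were 3.94% of tested genes among those called in the edgeR test; nothing is read from these counts, since the members were chosen on this contrast. Compared per transcript length in TPM, the control order ran from PAX6 (118 ± 5.48) through LHX2 (26.6 ± 0.803), OTX2 (22.2 ± 0.0985), SP8 (20.2 ± 0.528), EMX2 (13 ± 1.71), NR2F1 (6.34 ± 0.972), OTX1 (2.15 ± 0.095) and NR2F2 (1.83 ± 0.271) to EMX1 (0.913 ± 0.162). Neighbours in that order overlapped only for OTX1 and NR2F2. In knockdown PAX6 was still at the top at 88.8 ± 1.56 TPM, NR2F1 stood next at 33.9 ± 1.21 TPM, above LHX2 at 29.6 ± 0.563 TPM, and SP8 and NR2F2 overlapped at 9.62 ± 0.746 and 9.58 ± 0.632 TPM. PAX6 was 18.8 ± 2.66 times NR2F1 in control and 2.62 ± 0.0504 times in knockdown, and SP8 3.24 ± 0.505 and 0.283 ± 0.0121 times.

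Antisense or overlapping transcripts may limit some of these values, since strand use in the counting is not given. In GENCODE release 29 exons of NR2F1, EMX1, EMX2 and LHX2 overlap antisense genes on the opposite strand (NR2F1-AS1, AC012366.1, EMX2OS and AC006450.2), and those of PAX6 overlap PAUPAR, AL035078.4 and the coding gene ELP4. MIR1469 lies within NR2F2 on the same strand, and SP8, OTX1 and OTX2 had no such overlap. Whether reads from both strands were kept apart there is not known. The chromosome around each factor was also read out, as tested genes within 2 Mb. For NR2F1 there were 6 such neighbours, of which FAM172A, SLF1 and MCTP1, named after their values were seen, were called higher, with log2 fold changes of 0.59, 0.62 and 0.66 (edgeR test), and the neighbours' median was 0.36. NR2F2 had 1 tested neighbour, at -0.08. Over all tested genes 26.4% were called higher and 25.3% lower, and the share around EMX1 was near that, with 12 of 42 higher and 9 lower. Around SP8 2 of 7 were higher and 3 lower, and around EMX2 2 of 16 were higher and 8 lower with a median of -0.20. The medians for the PAX6, LHX2, OTX1 and OTX2 surroundings lay between -0.05 and 0.08. No neighbour of NR2F1, NR2F2 or EMX1 came near the change of the factor itself.

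**Figure D3:**
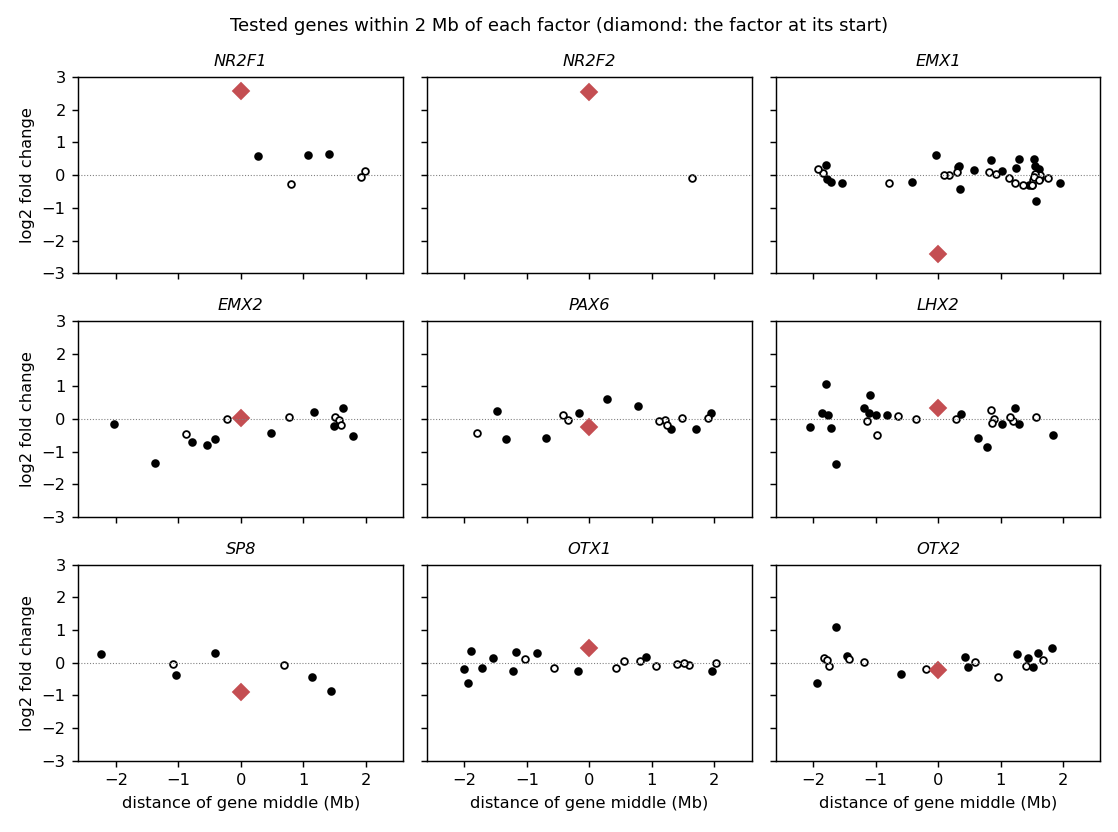
Log2 fold change of tested genes within 2 Mb of each factor against the distance of the gene's middle from the factor's start, filled where the edgeR adjusted p was under 0.05 and open where not, with a red diamond for the factor. The 6 neighbours of NR2F1 lie between -0.27 and 0.66, below its own 2.57.

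The sequence before the gene start is shown for a factor that was higher (NR2F1), a factor that was lower (SP8) and a factor near 0 (EMX2). Windows of 250 bases upstream of the outermost start come from RefSeq on GRCh38.p14. Capitals mark matches on either strand to AGGTCA, the hexamer bound by COUP-TF receptors, its variant AGTTCA, the GC box GGGCGG of SP factors, the homeodomain core TAATTA or the OTX site TAATCC, and no match overlapped another.
NR2F1, chr5:93582972-93583221, plus strand: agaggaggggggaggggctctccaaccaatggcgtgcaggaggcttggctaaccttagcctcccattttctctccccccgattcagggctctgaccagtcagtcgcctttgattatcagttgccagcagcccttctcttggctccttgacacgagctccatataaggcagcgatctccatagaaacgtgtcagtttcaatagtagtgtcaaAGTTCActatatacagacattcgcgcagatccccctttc
SP8, chr7:20786887-20787136, minus strand: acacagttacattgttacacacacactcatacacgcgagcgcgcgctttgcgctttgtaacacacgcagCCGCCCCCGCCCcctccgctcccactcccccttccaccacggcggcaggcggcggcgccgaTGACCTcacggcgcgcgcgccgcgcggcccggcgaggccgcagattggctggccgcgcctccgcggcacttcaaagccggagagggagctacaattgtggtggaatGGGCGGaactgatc
EMX2, chr10:117542496-117542745, plus strand: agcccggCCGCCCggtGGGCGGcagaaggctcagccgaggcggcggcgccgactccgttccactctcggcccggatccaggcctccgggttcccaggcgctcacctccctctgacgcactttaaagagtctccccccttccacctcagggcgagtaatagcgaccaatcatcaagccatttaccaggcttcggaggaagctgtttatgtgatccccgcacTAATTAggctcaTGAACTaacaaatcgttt
The NR2F1 window held a single AGTTCA match, 33 bases before the start, and no other motif. The SP8 window was the richest in CpG of the 3, with 33 CpG and 68% GC against 8 CpG and 52.4% in NR2F1, and held AGGTCA once and GGGCGG 3 times. The EMX2 window held GGGCGG 2 times, TAATTA once and AGTTCA once, with 20 CpG and 60.4% GC. Of 35116 windows in the table AGGTCA was in 12.1%, AGTTCA in 8.8%, GGGCGG in 42.6%, TAATTA in 4.35% and TAATCC in 5.62%, and the median window had 58% GC and 11 CpG. Of the 6 factors with a window at their outermost start, 1 held AGGTCA, 3 AGTTCA, 3 GGGCGG, 1 TAATTA and none TAATCC. A match is a description of letters and not a bound site.

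The surroundings of these factors in the patterning network were read from lists of other genes. Over the transcriptome 6966 of 13468 tested genes (51.7%) had a Benjamini-Hochberg adjusted p under 0.05 by edgeR's quasi-likelihood test, 26.4% higher and 25.3% lower, and the median over all of them was -0.01 on the log2 scale. Of the called genes 51.1% were higher, against 37.7% with library totals alone and 20.6% on log2(TPM + 1). The lists hold none of the 9 factors, and were drawn up with earlier results of these data known.

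Genes of the rostral patterning centre that were called lower are targets or inhibitors of FGF signalling, while its ligands were too low to test or not called. Of 14 genes 10 were tested, 6 were lower, 1 was higher and 3 were not called, and the list median was -0.76. That is 70% called, against 51.7% of all tested genes. ETV1 and ETV5, ETS factors induced by FGF, fell from 43.4 ± 3.12 to 11.3 CPM and from 31.1 to 12.3 CPM, log2 fold changes of -1.94 and -1.34. DUSP6, a phosphatase that curbs ERK, fell from 8.47 to 2.25 CPM (-1.91), and SPRY2, a Sprouty inhibitor of FGF receptors, from 27 to 16 CPM (-0.76). SPRY1 and SPRY4, named after their values were seen, fell by 1.31 and 0.76. The SPRY4 call was lost in the DESeq2 Wald test and without control replicate 1. SPRY4 was too low in TPM to be tested on log2 TPM. The member that rose was SIX3, a homeobox factor of the anterior neural plate, with a log2 fold change of 0.32 whose call was lost on log2(TPM + 1), and it too was named after its value was seen. FGF8 and FGF18 were too low to test and FGF17 was not called at 2.36 and 2.12 CPM. ETV1, ETV5, DUSP6 and SPRY2 had edgeR adjusted p values of 1.89e-08 or less.

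Genes of the caudal and medial side did not move one way. Of 13 tested 5 were higher and 3 lower (61.5% called against 51.7% of all tested genes), with a median of 0.19. On log2(TPM + 1) 3 were higher, while DMRTA2 and RSPO3 were too low in TPM to be tested there. FGFR3, an FGF receptor with a caudal high point in the mouse cortical primordium, rose from 16.9 ± 1.77 to 103 ± 3.79 CPM (log2 fold change 2.61), and its value was known when it was listed. DMRTA1 and DMRTA2, doublesex-related factors of the caudal and medial cortex, rose by 0.82 and 1.26. DMRTA2 rose from a low 0.954 to 2.27 CPM and had no test on log2(TPM + 1). BMP7, a bone morphogenetic protein of the dorsal midline, rose from 11.9 to 22.8 CPM (0.94). RSPO3, a Wnt agonist counted among the 5, stood at 0.579 and 1.69 CPM and also had no test on log2(TPM + 1). RSPO3 passed the low-count filter only with its knockdown libraries, where it was high, so its call is given as a description. The members that fell were ZIC1, a zinc finger factor of the midline, from 224 to 49.4 CPM (-2.18), WNT2B, a ligand of the cortical hem, by 0.50 and LEF1, a nuclear effector of Wnt signals, by 0.53. The hem genes WNT8B, LMX1A, BMP4, MSX1, MSX2 and RSPO1 were too low to test, and AXIN2, a Wnt target, was not called at 26 and 25.1 CPM. In edgeR's test these risen or fallen genes, RSPO3 set aside, had adjusted p values of 0.00492 or less.

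Dorsal telencephalic genes outside the 9 factors were called about as often as all tested genes, 50% against 51.7%. Of 10 tested 4 were higher, 1 lower and 5 not called (3 lower on log2(TPM + 1)), with a median of 0.29. FEZF1, a zinc finger factor of the rostral forebrain, rose from 30.7 to 50.6 CPM (log2 fold change 0.72, edgeR adjusted p = 6.36e-09). NEUROD1 and EOMES, factors of the excitatory lineage, rose from 1.83 to 3.17 and from 1.62 to 2.83 CPM, with edgeR adjusted p values of 0.00613 or less. NEUROD6, of the same lineage and counted among the 4, stood at 0.368 and 2.45 CPM. It passed the low-count filter through its knockdown libraries alone, where it was high, so its call is given as a description. NEUROG2, the proneural factor of the pallium, fell by 0.29 (edgeR adjusted p = 0.0293), a call lost in the DESeq2 Wald test and without control replicate 2 or knockdown replicate 1 or 3. TBR1, a marker of early cortical neurons, and GLI3, a repressor of ventral fate, were not called at 9.55 and 9.26 CPM and at 48.5 and 45.7 CPM. ID4, the most abundant of the list, was not called at 219 and 231 CPM.

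Ventral telencephalic genes were split in direction. Summed over the list of 20 they stood at 697 TPM in control and 507 TPM in knockdown. Of 17 tested 6 were higher and 9 lower (2 higher on log2(TPM + 1)), 88.2% called against 51.7% of all tested genes. MEIS2, a homeodomain factor of the lateral eminence, fell from 366 to 189 CPM (log2 fold change -0.95), while LHX6, a factor of medial eminence interneurons, rose from 8.98 to 18.8 CPM (1.06). DLX5 fell by 0.41, as did DLX1, DLX2 and DLX6 by 0.21, 0.26 and 0.42, the latter 3 named after their values were seen. NKX2-1, the selector of the medial eminence, was not called at 10.5 and 11.4 CPM. MEIS2, LHX6 and DLX5 had edgeR adjusted p values of 4.30e-07 or less. In the short list of caudal eminence interneuron genes 7 were tested and 57.1% called, near the 51.7% of all tested genes. NR2F2 and SP8 also belong there by their biology. SCGN, ADARB2 and CNR1 fell by 1.42, 0.85 and 0.28 and NPAS1 rose by 1.27 (edgeR adjusted p 0.00131 or less). PROX1, CALB2 and VIP were not called.

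**Figure D4:**
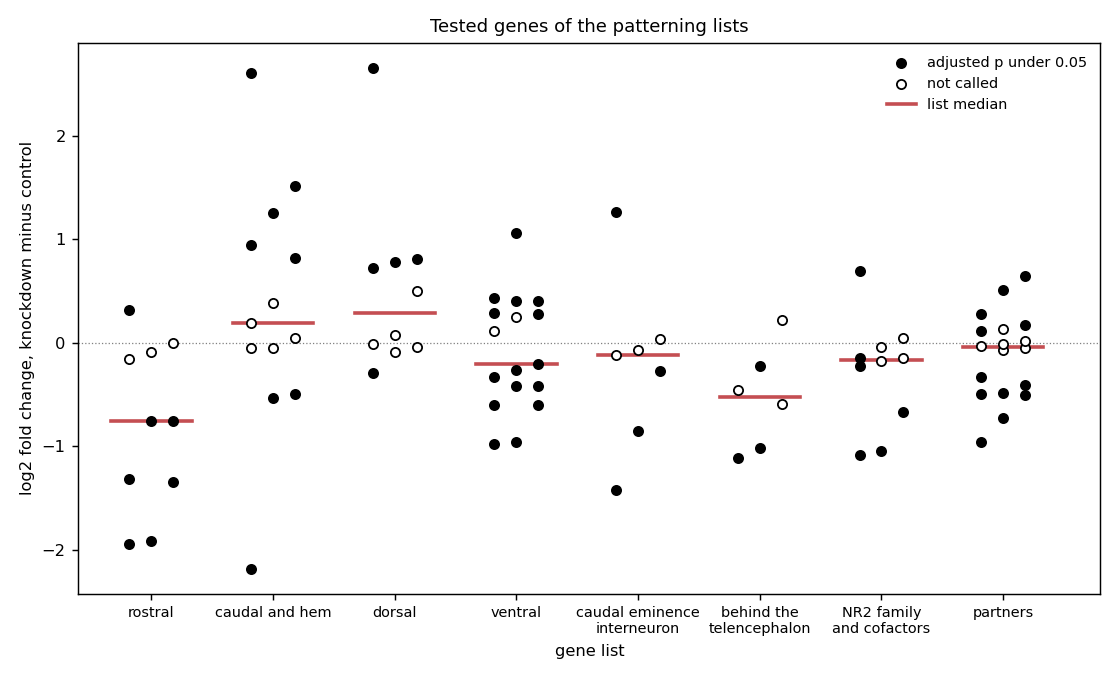
Log2 fold change of each tested gene in 8 lists, knockdown minus control, with filled points for an edgeR adjusted p under 0.05, open points for genes not called and a red line at the list median. The rostral list has its median at -0.76 while the caudal, dorsal and ventral lists hold genes on both sides of 0; the eye and hypothalamus list, with 1 tested gene, is not drawn.

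Genes of territories behind or below the telencephalon were scarce in both groups. Of 24 diencephalic, midbrain and hindbrain genes with a row, 18 were too low to test, with EN1, HOXA3 and HOXB2 among them. Of the 6 tested 3 were lower, GATA2 and PAX5 among them, so 50% were called against 51.7% of all tested genes. None of these 3 calls held in the DESeq2 Wald test, and TCF7L2, a thalamic factor, was not called at 13.8 and 16.1 CPM. Of 11 eye field and hypothalamic genes 10 were too low to test, RAX and SIX6 included, and OTP was not called at 1.58 and 2.29 CPM.

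Relatives and cofactors of the COUP-TF receptors were called at a share of 60%, near the 51.7% of all tested genes. Of 10 tested 1 was higher and 5 lower (3 lower in the DESeq2 Wald test), with a median of -0.17. NR2E1, the tailless receptor of neural stem cells, rose from 24.5 to 39.6 CPM (0.69, edgeR adjusted p = 1.19e-08). BCL11A, a zinc finger partner of COUP-TF receptors, fell from 53.1 to 25.8 CPM (-1.04, edgeR adjusted p = 3.46e-12) and NR2C2, a testicular receptor, by 0.23. ZFPM1 and ZFPM2, FOG cofactors at under 3 CPM, fell by 0.67 and 1.08, and were too low in TPM to be tested on log2(TPM + 1). NR2C1 fell by 0.15, a call lost in the DESeq2 Wald test and without control replicate 1 or 3 or any of the knockdown replicates. NR2F6, the third COUP-TF gene, was not called, at 25.6 and 22.6 CPM (-0.18). Of 18 tested paralogs and partners of the homeodomain and SP factors 5 were higher and 7 lower (2 and 11 on log2(TPM + 1)). That is 66.7% called, against 51.7% of all tested genes. TLE1, a Groucho corepressor, fell by 0.73, PBX3, a partner of homeodomain proteins, by 0.50 and MEIS2, counted above, by 0.95, while SP1, a general GC-box factor, rose by 0.51.

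The genes whose levels most resembled each factor over the 6 libraries were found among 10859 genes whose CPM averaged 5 or more over those libraries, by root mean square distance in log2(CPM + 1) from the control mean. For NR2F1 the nearest were FAM72C (0.13), FGFR3 (0.14), NR2F2 (0.15), TXNRD3 (0.21) and PMEL (0.21). For NR2F2 they were NR2F1 (0.15), PMEL (0.17), FGFR3 (0.19), FAM72C (0.19) and TXNRD3 (0.28). FAM72C has near-identical copies, so its count is uncertain, and PMEL is a melanosome gene. PMEL at 1.96 and 12.4 CPM and TXNRD3 at 2.5 and 21.5 CPM lay under 5 CPM in control and passed that minimum through the knockdown libraries, where they were high. For SP8 the nearest were EXOSC10 (0.02), PDE5A (0.03), SEMA4D (0.05), PTCHD4 (0.06) and ERRFI1 (0.06). EXOSC10 and ERRFI1 lie on chromosome 1 among lowered genes, 32 of 40 and 29 of 33 tested neighbours within 2 Mb being called lower. Around SP8 3 of 7 were called lower, and over all tested genes 25.3%. For EMX2 they were PFDN2, ALKBH7, UQCR11, PABPN1 and DCXR (0.03 to 0.04), whose log2 fold changes lay between 0.0032 and 0.09. These distances rest on 6 libraries in 2 groups, and all genes share the same libraries.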

How the data were processed

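Bulk libraries of 3 control and 3 FABP7 knockdown organoids were used, and the 2 single-cell libraries, 1 per group, were not analysed here. Per the file headers the authors' table holds, for each gene and library, an estimated count, a TPM, an FPKM and a normalized signal. In the deposited values that signal is the count, rounded up and multiplied by a constant for each library, and neither it nor the authors' FPKM entered a test. Submitters' processing notes name hg38, with aligner, counting tool and strand not given in the sources used here.

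Estimated counts, of which 12.6 to 14.9% per library were fractional, were rounded to whole numbers. edgeR 4.0.16 under R 4.3.3 applied filterByExpr (minimum count 10, minimum total 15), TMM scaling and a robust quasi-likelihood F-test, with p adjusted by Benjamini and Hochberg and called under 0.05. Of the called list and marker genes named here, GATA2, PAX5, ZFPM2, HTR2C and SOX10 passed the filter only with their control libraries. NEUROD6, RSPO3 and LUM passed it only with their knockdown libraries. Each was high in the group that let it pass, so these calls are description. Fold changes give knockdown relative to control, and ± is the SD over 3 libraries. limma 3.58.1 tested the deposited TPM values on log2(TPM + 1) and log2(TPM + 0.1), where at least 3 libraries reached 1 TPM. Alternatives also covered size factors and the Wald test of DESeq2 1.42.0, upper quartiles, unscaled totals, 2 other count filters, a replicate block and removal of each library in turn. Positions are RefSeq's on GRCh38.p14, matched by NCBI Gene ID. On counts simulated for knockdown against control over 13483 genes, the edgeR test recovered 53 of 100 genes changed 1.2-fold and 98 of 100 changed 2-fold, with 10 false among 161 calls. The simulation gave every gene the same spread beyond counting error and changed no other genes. Those rates therefore need not hold for these libraries. Floors of 3 counts cover counting error only.

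The members and lists were chosen with earlier results of these data known. Named are all members and FABP7; in each list up to 4 called genes with the smallest p, every called gene where 5 or fewer were called, and a gene not called where it is the most abundant of its list; the most abundant marker of each cell type; and the 5 genes nearest to NR2F1, NR2F2, SP8 and EMX2. Other genes named are examples chosen after their values were seen, and list genes with no row were not analysed here. Some genes that this rule would name are not reported here.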

Additional observations from a re-analysis of the deposited data

How the results depend on the processing

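With a replicate block 7114 genes were called against 6966 without it, and no list count or member value moved beyond the limits used here (1.5 times, or 1 SD). Whether the numbers pair the libraries is not settled by these values. Deviations of same-numbered libraries correlated weakly, at 0.0826, 0.023 and 0.0847 for replicates 1, 2 and 3. Those of replicates 1 and 3 were the highest of all pairs, while control replicate 2 correlated best with knockdown replicate 1 (0.073). Of all values under 15 alternatives 373 stayed within those limits, 69 moved and 4 reversed, all 4 for EMX2. On log2(TPM + 1) and log2(TPM + 0.1) 1475 and 1469 genes were higher and 5694 and 5680 lower. On both TPM scales 0 rostral, 3 caudal, 2 ventral and 2 partner genes were higher, and 3 dorsal, 1 diencephalic to hindbrain and 11 partner genes lower. Some genes called on counts, such as DMRTA2, RSPO3, GATA2 and PAX5, were too low in TPM to be tested there. At 10 CPM or more 3 rostral genes were lower, 3 caudal, 1 dorsal, 0 caudal eminence and 3 partner genes higher, and 0 dorsal and 1 diencephalic to hindbrain genes lower. The DESeq2 Wald test gave 0 dorsal, 0 diencephalic to hindbrain and 3 NR2 family genes lower and 3 partner genes higher. Upper-quartile factors and library totals each gave 3 partner genes higher, and totals 2 dorsal genes lower. With no filter 1 eye or hypothalamic and 1 diencephalic to hindbrain gene were higher and 1 of the latter lower. On log2(TPM + 1) and log2(TPM + 0.1) the log2 values were 2.26 and 2.41 for NR2F1, 1.91 and 2.34 for NR2F2, -0.12 and -0.13 for EMX2, -0.40 and -0.40 for PAX6, 0.15 and 0.15 for LHX2, 0.20 and 0.26 for OTX1, and -0.40 and -0.42 for OTX2, and SP8 was at -1.07 on the latter. With library totals EMX2 was at -0.026, PAX6 at -0.32 and LHX2 at 0.26. Relative to the median of all genes on log2(TPM + 1), NR2F1 was at 2.41, SP8 at -0.84 and EMX2 at 0.04. EMX1 and OTX1 gave no value at 10 CPM or more, nor did EMX1 on TPM. Leaving out each library gave 5888 to 6983 called genes (3033 to 3551 higher, 2855 to 3432 lower), 5 to 7 rostral lower, 4 to 6 dorsal higher and 0 to 1 lower, 4 to 7 ventral higher, 0 to 2 eye or hypothalamic higher, 0 to 1 diencephalic to hindbrain higher and 0 to 3 lower, 3 to 6 NR2 family lower, 3 to 5 partner higher and 6 to 7 lower, and log2 fold changes of 2.49 to 2.63 for NR2F1, 2.49 to 2.64 for NR2F2, -2.68 to -2.20 for EMX1, -0.05 to 0.15 for EMX2, -0.28 to -0.23 for PAX6, -0.94 to -0.83 for SP8, 0.31 to 0.35 for LHX2, 0.38 to 0.56 for OTX1 and -0.28 to -0.19 for OTX2, with EMX2 at -0.050 without control replicate 3.

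Precision is limited for EMX1, OTX1 and the list genes under 3 CPM, and 1 derived line per group limits every comparison.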
